A study of Meloidogyne incognita with 75 samples.

Results

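The transcripts described here are 100 genes of the root-knot nematode Meloidogyne incognita that stood high in J3, J4 and J4_female animals and low in newly hatched juveniles, moulting animals and adults. They were taken from single-animal Smart-seq2 libraries, in which the messenger RNA of 1 nematode is copied to full-length cDNA, of 5 pre_J2, 12 par_J2, 14 J3, 8 J4, 14 J4_moulting, 8 J4_female, 7 male and 7 female animals, 75 in all. The pre_J2 were hatched from eggs in vitro over about 3 days, the libraries titled male carry a tag that reads J4_male, and the labels give no strain, host plant or age for any stage. The labels name no treatment, and by its title each library holds its own animal. Neither sex nor distance from the next moult is given for J3 and J4 animals.

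Root-knot nematodes hatch as mobile juveniles that enter a root, settle beside the vascular tissue and turn root cells into giant feeding cells. The settled juvenile swells, loses its mobility and passes through the J3 and J4 stages, which lack a functional feeding stylet, before the last moult gives either a swollen female, which feeds again, or a worm-shaped male, which leaves the root. The J3, J4 and J4_female libraries are called sedentary here from that textbook account, as the labels do not use the word.

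The members were chosen on these same values, so their rise and fall over the stages is a description, with no test. A gene entered if it had a single transcript identifier, a mean below 10 CPM (counts per 1000000 counts of the library) in female, and a mean log2(CPM + 1) in J3 at or above that in par_J2. Its score was the lowest stage mean of log2(CPM + 1) among J3, J4 and J4_female minus the highest among pre_J2, J4_moulting, male and female. Of 45378 transcripts, 43359 were the only one of their gene, 27787 met both conditions and 3289 of these had a positive score. The 100 of highest score are the members. Their scores ran from 3.98 through a median of 1.05 to 0.76, and 8 members scored at least 2. At the limit, Mi_01876.1 and Mi_11692.1 entered with 0.763 and 0.7598, and Mi_21861.1 and Mi_05014.1 stayed out with 0.7596 and 0.751. The identifiers are not paired with gene names in the files, so nothing is said of what the members do.

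Depth ran from 3265447 to 40174566 counts per library. The lowest total was that of J4 replicate 5. J4 replicates 7 and 8, which sit among the J3 columns in the deposited tables, are included, and the summed level, group A, Mi_31446.1 and the tests are also given without them. Levels here are compared between libraries within a transcript, since transcript lengths were not used. In whole animals, fewer cells of a type and less RNA per cell cannot be told apart.

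Together the members made up a small part of the RNA, and that part was uneven even among animals of the same stage. Their summed level was 3504 ± 2610 CPM (SD, n = 14) in J3, 3213 ± 2219 (n = 8) in J4 and 2931 ± 1579 (n = 8) in J4_female. It was 1548 ± 890 CPM (n = 12) in par_J2, and 150 ± 60.9 (n = 5) in pre_J2 (236 with DESeq2 size factors), 281 ± 84.5 (n = 14) in J4_moulting, 167 ± 100.3 (n = 7) in male and 271 ± 255 (n = 7) in female. Single J3 animals ran from 1344 through a median of 2210 to 9912 CPM, J4 animals from 1386 through 2274 to 8086 and J4_female animals from 798 through 2632 to 5740. The par_J2 animals, at 688 to 3647 CPM with a median of 1243, overlapped all 3 sedentary stages. Moulting animals reached at most 497 CPM and males 338. Among females, replicate 6 stood at 830 CPM, above the lowest J4_female animal, and the next at 308. The female mean was 178 CPM without replicate 6, and with TMM effective library sizes in place of totals it was 473. Without J4 replicates 7 and 8, the J4 mean was 3674 CPM.

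**Figure D1:**
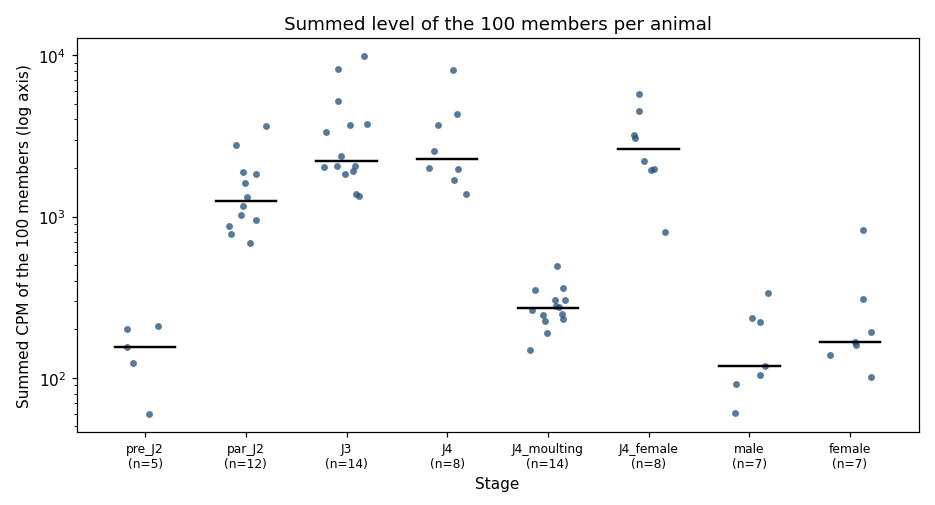
Summed CPM of the 100 members in each animal (points, log axis) by stage, with the stage median as a bar. The J3, J4 and J4_female animals spread from 798 to 9912 CPM, the par_J2 animals lie at 688 to 3647, and female replicate 6, at 830, stands above the other 6 female animals.

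Most members were detected in most sedentary animals. At least 1 count was found for 93.9 ± 4.21 of the 100 members in J3 (SD, n = 14), 91.1 ± 5.96 in J4 (n = 8) and 85.6 ± 11.1 in J4_female (n = 8), against 34 ± 9.77 in pre_J2 (n = 5) and 42.1 ± 8.17 in male (n = 7). The numbers in par_J2, J4_moulting and female, at 75.5 ± 10.3 (n = 12), 74.4 ± 12.33 (n = 14) and 68.1 ± 18.6 (n = 7), were closer to those of J4_female. With each library thinned to 3000000 counts, the means were 92.3 in J3, 90 in J4, 83.6 in J4_female, 73.25 in par_J2, 68.9 in J4_moulting, 59.6 in female, 33.7 in male and 32.4 in pre_J2. Of the 100 members, 33 had no count in any pre_J2 library and 22 none in any male library. No member separated the stages animal by animal. For none of them did all 30 sedentary libraries exceed all 33 libraries of the low stages, and the same held for 0% of the 43359 genes with a single transcript.

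The filtered count table that was also deposited lacks 45 of the 100 members. It keeps 48.5% of all genes with a single transcript, 28.2% of those that met both conditions with a positive score, and 55 of the 100 members.

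**Figure D2:**
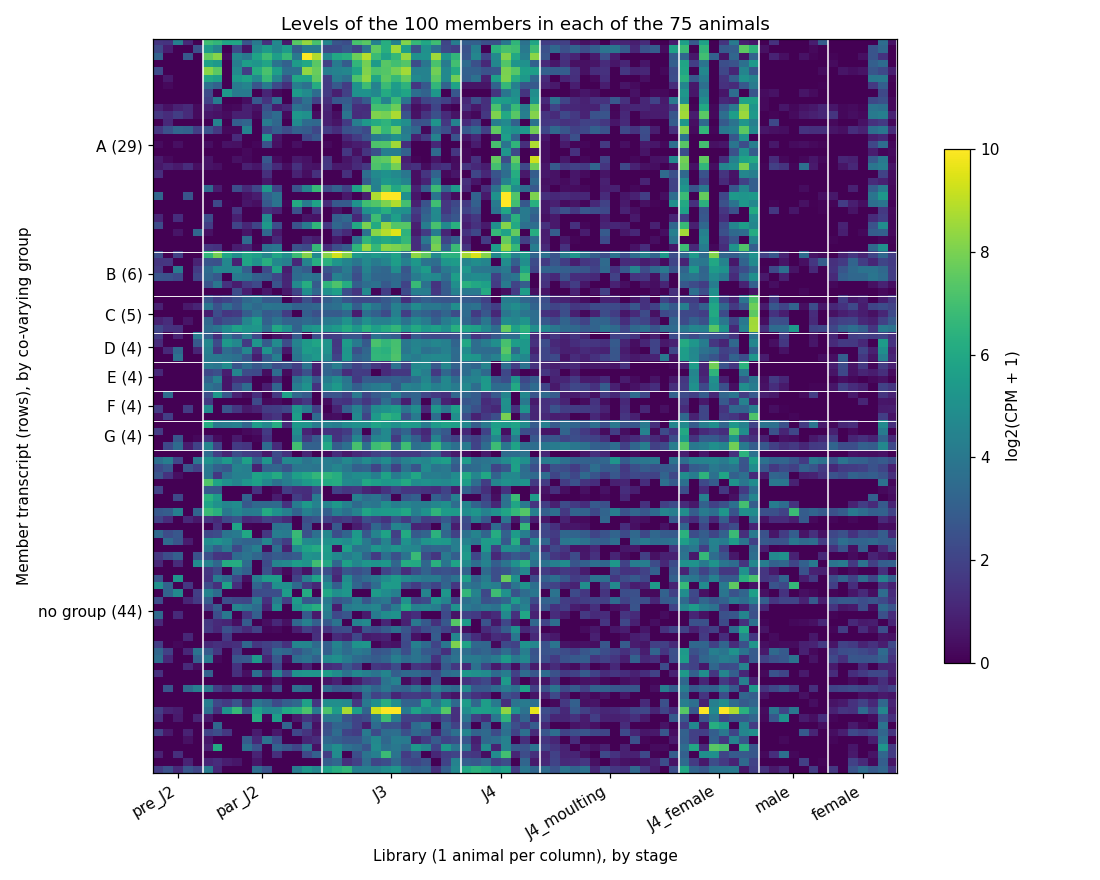
Level of each member (rows, log2(CPM + 1), colour scale from 0 to 10) in each of the 75 animals (columns, by stage, white lines between stages). Rows are ordered by groups of members whose levels co-vary among sedentary animals, and the 29 of group A light up in some J3, J4 and J4_female animals and stay dark in others of the same stage.

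The gene of highest score was Mi_03395.1, which led the next by a wide margin. In pre_J2 it stood at 2.56, 0.997, 0.726, 0 and 0 CPM in the 5 animals. It ran from 1.83 through a median of 29.8 to 144 CPM in par_J2, from 1.67 through 49.7 to 2039 in J3, from 12.6 through 45.4 to 823 in J4 and from 5.86 through 125 to 3527 in J4_female. Moulting animals lay between 1.07 and 5.95 CPM, males between 0 and 14.7 and females between 0.697 and 23.1, so the lowest animal of each sedentary stage fell within the ranges of male and female. Its score was 3.98, against 2.35 for the second. It was the most abundant member in 9 of the 30 sedentary libraries. In J4_female replicate 3 it made up 61.4% of the members' summed level, and in replicate 5 it made up 58.0%. Leaving it out took the J4_female sum from 2931 to 2237 CPM and the J3 sum to 3129.

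Of the next 4 by score, Mi_20661.1 and Mi_30211.1 had J3 means far above their medians. Mi_20661.1 stood at 116 ± 226 CPM in J3 (SD, n = 14) with a median of 2.41, and it ran from 0 to 729. In J4 it was at 52.7 ± 68.1 (n = 8) and in J4_female at 63.1 ± 134 (n = 8), while par_J2 animals held at most 9.25 CPM. Mi_30211.1 stood at 93.1 ± 131 CPM in J3, with a median of 19.7 and a highest animal of 448, and reached 1086 in 1 J4 animal against a J4 median of 11.8. In both, each of the 3 sedentary stages held an animal below 1 CPM beside one far above its median.

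Mi_03783.1 and Mi_11059.1 stood at 10 CPM or above in 10 and 13 of the 14 J3 animals, against 6 for Mi_20661.1 and 7 for Mi_30211.1. Mi_03783.1 ran from 0.839 through 65.1 to 341 CPM in J3, from 0.668 through 11.4 to 282 in J4 and from 0 through 15.8 to 106 in J4_female. Mi_11059.1 ran from 2.52 through 80.0 to 317 CPM in J3, from 0.859 through 25.7 to 262 in J4 and from 0 through 11.97 to 80.8 in J4_female. In both the median was highest in J3, and the ranges of the 3 stages overlapped. Mi_11059.1 already had a median of 51.3 CPM in par_J2, while that of Mi_03783.1 was 3.20.

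**Figure D3:**
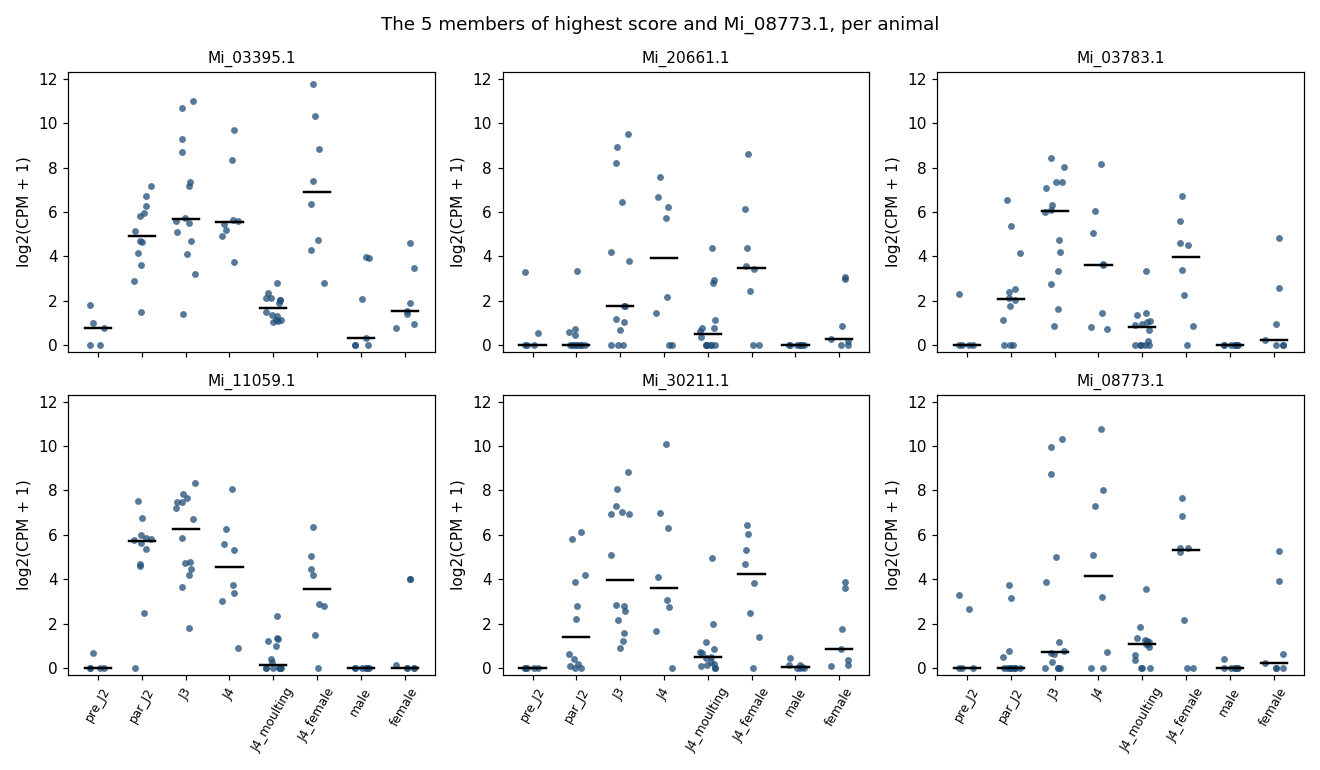
log2(CPM + 1) per animal (points) and stage median (bar) of the 5 members of highest score and of Mi_08773.1, the second in mean J3 level. Within J3, J4 and J4_female the points of Mi_20661.1, Mi_30211.1 and Mi_08773.1 run from below 1 CPM up to 729, 1086 and 1753 CPM.

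Members differed in whether they were already present in settled juveniles. The difference in mean log2(CPM + 1) between J3 and par_J2, whose sign the rule sets, ran from 0.05 to 3.30 with a median of 1.07. It was below 0.5 for 21 members, from 0.5 to 1 for 27, from 1 to 2 for 38 and at least 2 for 14. By mean CPM, 50 members had at least 50% of their J3 level in par_J2, 14 had more than in J3, and 16 had less than 10%. In 74 of 100 members the par_J2 mean lay above all 4 low stages. Mi_40117.1 and Mi_42319.1 differed least, at 2.19 ± 1.54 CPM in J3 (n = 14) against 2.50 ± 2.79 in par_J2 (n = 12) and at 10.4 ± 8.60 against 9.53 ± 7.54. Mi_11066.1 and Mi_33441.1 differed most, at 120 ± 125 CPM in J3 against 11.9 ± 29.3 in par_J2 and at 42.0 ± 54.1 against 1.10 ± 2.82. In the edgeR test of J3 against par_J2, 3.95% of 25685 transcripts were called, 1.08% higher and 2.87% lower in J3, and 6 of the 90 members tested were among those higher, a count from which nothing is read. Among these were Mi_22089.1, at 5.87 ± 5.28 against 0.352 ± 0.496 CPM, and Mi_23572.1, at 35.6 ± 72.6 against 0.820 ± 0.993. The J3 mean of Mi_23572.1 rests on few animals, since it reached 10 CPM in 3 of 14. Each of these 2 calls failed in 1 alternative, of 6 for Mi_22089.1 and of 7 for Mi_23572.1.

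**Figure D4:**
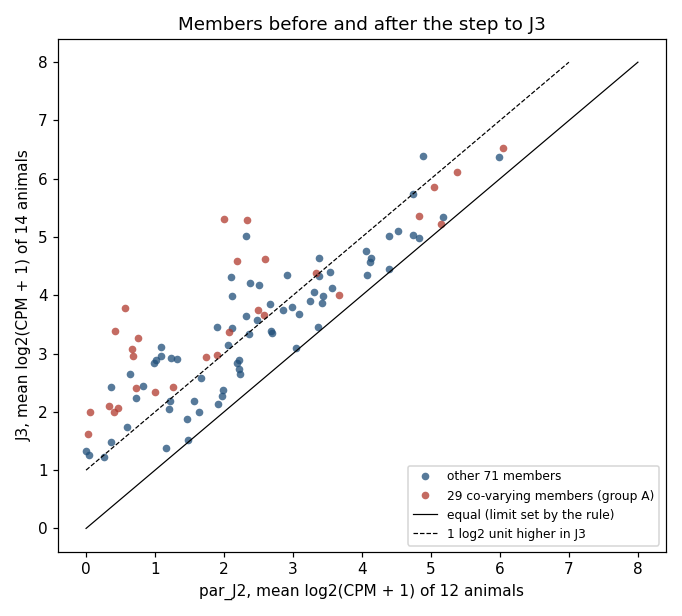
Mean log2(CPM + 1) of each member in par_J2 (x axis, 12 animals) and in J3 (y axis, 14 animals). Points cannot fall below the solid line, which the rule sets, and 52 of the 100 lie on or above the dashed line of 1 log2 unit, 23 of them among the 29 members of group A.

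Among the sedentary stages, no member passed the test by edgeR. The rule used the lowest of the 3 stage means and not their differences, although it favours genes whose means are alike. It also kept only genes with a J3 mean at or above that of par_J2, which favours a high J3 mean in the comparisons with J3. In J4 against J3, 0.00651% of 30708 transcripts were called and 0 of the 100 members, of which 4 had an unadjusted p under 0.05, beside 14.8% of all transcripts. DESeq2 called 1 member, lower in J4, beside 3.68% of all transcripts. In J4_female against J4, 0% of 28250 transcripts were called by edgeR, and 0 of the 96 members tested, with 6 at an unadjusted p under 0.05 beside 4.81% of all transcripts, and 0 called by DESeq2 beside 0.0106%. In J4_female against J3, 0.881% of 29954 transcripts were called, 0.611% higher and 0.27% lower, and 0 of the 100 members, with 24 at an unadjusted p under 0.05 beside 16.7% of all transcripts. DESeq2 called 1 member higher and 5 lower there, beside 5.45% of all transcripts. Without J4 replicates 7 and 8, 0 members were called by edgeR in either comparison with J4. In simulated counts the share of 4-fold changes recovered was 44% for J4 against J3, 26% for J4_female against J3 and 6% for J4_female against J4, so these counts do not show that members stayed level.

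The member of smallest p in J4 against J3 was Mi_11463.1. It lay at 23.7 to 72.6 CPM in the 14 J3 animals, with a median of 35.8, and at 2.33 to 45.8 in the 8 J4 animals, with a median of 24.5. Its log2 fold change was -1.48 (SE 0.41, edgeR adjusted p = 0.126), and the adjusted p ran from 0.0340 to 0.865 over 29 alternatives. In J4_female against J3 it was Mi_31453.1, at 4.74 ± 5.73 CPM in J4_female (n = 8) and 36.8 ± 47.3 in J3 (n = 14), with a log2 fold change of -3.10 (SE 1.02, edgeR adjusted p = 0.119, 0.00974 to 0.349 over 28 alternatives). In J4_female against J4 it was Mi_05228.1, at 58.9 ± 67.4 CPM against 11.2 ± 9.65 (log2 fold change 2.41, SE 1.01, edgeR adjusted p = 0.937, 0.552 to 0.9999 over 23 alternatives).

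The median fitted log2 fold change over the members was -0.38 in J4_female against J3, beside 0.07 over all transcripts tested, -0.31 beside 0.10 in J4 against J3 and -0.16 beside -0.03 in J4_female against J4. The last turned to 0.05 beside -0.02 without J4 replicate 3, and was -0.47 beside -0.01 without J4 replicates 7 and 8. By mean log2(CPM + 1), 49 members were highest in J3, 34 in J4 and 17 in J4_female, and J4_female was the lowest of the 3 for 63. The condition on par_J2 favours a high J3 mean, so nothing is read from these counts or from the medians against J3. The 2 extremes were Mi_08769.1, whose mean was 3.83 log2 units lower in J4_female than in J3, and Mi_23572.1, whose mean was 2.28 higher. Mi_08769.1 ran from 22.2 through 85.7 to 473 CPM in J3 and from 0.437 through 7.96 to 123 in J4_female. Mi_23572.1 ran from 0.264 through 1.52 to 231 CPM in J3 and from 0.283 through 29.6 to 263 in J4_female. For both, the ranges in J3 and J4_female overlapped.

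Deviations from the stage mean were correlated over the 30 sedentary animals, and 56 of the 100 members fell into 7 groups. The groups were formed from these values and are a description. The largest, called group A, held 29 members with a median pairwise Spearman correlation of 0.68, against 0.10 over all pairs of members. Each animal's library and depth are shared by all its members. Among the 12 par_J2 animals, which the grouping did not use, the median correlation within the 29 was 0.29, and it was 0.12 over all pairs. Among the 14 J4_moulting animals it was 0.31 within the 29, and 0.11 over all pairs. The other 6 groups, of 4 to 6 members each, ranged in par_J2 from -0.04 in group B through 0.15 in D and 0.19 in F to 0.47 in C, and group B stood at 0.03 in J4_moulting, so the co-variation did not recur in all of them. Over all members, whether correlations within a stage exceeded those of all transcripts depended on scaling. With library totals the median was 0.08 in J3 beside 0.07 over 39365 transcripts, 0.12 in J4 beside 0.19 and 0.10 in J4_female beside 0.11. With TMM effective library sizes it was 0.14 beside 0.02, 0.10 beside 0.04 and 0.12 beside 0.07.

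Group A held the largest sum of the 7 groups in J3, J4 and J4_female, by stage mean, and it differed widely between animals of a stage. In J3 its summed level ran from 95.6 CPM in replicate 1 through a median of 941 to 6292 in replicate 8. In J4 it ran from 30.1 CPM in replicate 1 through 946 to 5446 in replicate 3, and in J4_female from 9.19 in replicate 4 through 576 to 3009 in replicate 1. The highest animal exceeded the lowest of its stage 65.8-fold, 181-fold and 327-fold, while the other 71 members together differed 3.69-fold, 2.68-fold and 5.46-fold. Some of the smaller groups among the 71 spread more widely than these sums. Group F differed 193-fold in J4 and 156-fold in J4_female, group C 173-fold and group E 171-fold in J4_female. Without J4 replicates 7 and 8 the J4 median of group A was 1922 CPM. At least 1000 CPM was reached by 7 of 14 J3, 4 of 8 J4 and 3 of 8 J4_female animals, and 3 animals of each stage lay below 200 CPM. Of the 29 members, 19 were below 1 CPM in 5 or more of the 30 sedentary animals and at 10 CPM or above in 5 or more others, against 13 of the 71. Since the 29 were grouped by this co-variation, the contrast with the 71 is not tested.

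In J3 and J4_female the highest animal of group A had fewer counts than the lowest, and in J4 it had more. J4_female replicate 4, the lowest of its stage, held 24701667 counts and a count for 7 of the 29 members. J4_female replicate 1, the highest, held 5086869 counts and a count for 28. The highest J3 animal, replicate 8, had 7368670 counts, the fewest in its stage, and the lowest, replicate 1, had 15070404. Transcripts detected numbered 21883 in J4_female replicate 4, the fewest in its stage, 28178 in replicate 1, and 22394 in replicate 7, which was second highest in group A at 1894 CPM. In J4 the lowest animal, replicate 1, held 10475573 counts and 34893 transcripts detected. The highest, replicate 3, held 13570273 counts and 38749 transcripts, the most in its stage. The part of depth and of breadth of detection in the result was not tested. The other 71 members stood at 1935 CPM in J4_female replicate 4 and 1504 in replicate 1.

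**Figure D5:**
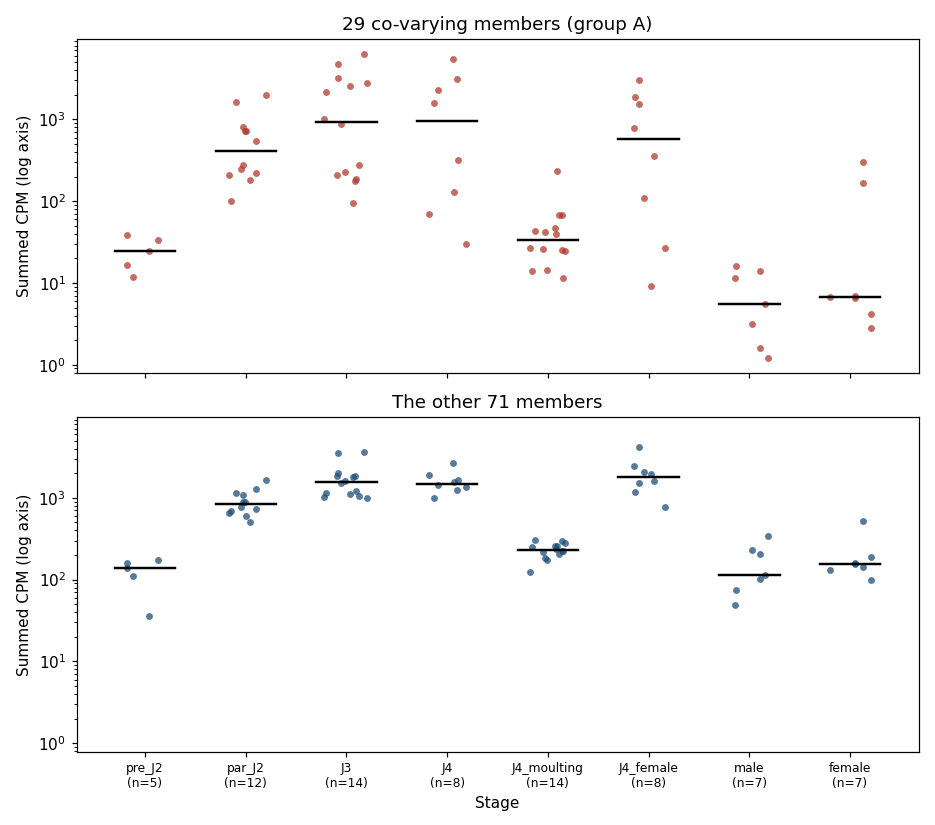
Summed CPM per animal (points, log axis) and stage median (bar) of the 29 members of group A (top) and of the other 71 members (bottom). Within J4_female, group A spans 9.19 to 3009 CPM and the other members 772 to 4216.

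Outside J3, J4 and J4_female, group A was present in every par_J2 animal and stood out in single moulting and female animals. In par_J2 its sum ran from 100.7 through 409 to 2005 CPM. The lowest par_J2 animal lay above the lowest animal of J3, of J4 and of J4_female. Among moulting animals replicate 14 stood at 236 CPM and the next at 68.5. Among females replicates 6 and 5 stood at 303 and 166 CPM and the other 5 between 2.80 and 6.90. Males lay between 1.21 and 16.3 CPM. The step from par_J2 to J3 was at least 1 log2 unit for 23 of the 29 members and for 29 of the other 71. The filtered table keeps 9 of the 29 and 46 of the 71.

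Animals low in group A were often led by another member. Mi_31446.1, chosen after its values were seen, was the most abundant member in 8 of the 30 sedentary libraries, 4 of J3, 3 of J4 and 1 of J4_female. It stood at 189 to 674 CPM in these 8 and at 6.71 to 297 in the other 22. Group A summed to 9.19 to 277 CPM in the 8, and to 26.7 to 6292 in the 22, of which 4 were below 277. A library led by Mi_31446.1 has every member of group A below it, so low sums there are set in part by this choice. The 3 J4 animals were replicates 1, 7 and 8, the 3 lowest in group A of that stage, and the J4_female animal was replicate 4, the lowest. By stage, Mi_31446.1 stood at 88.0 ± 85.4 CPM in par_J2 (n = 12), 150 ± 174 in J3 (n = 14), 191 ± 243 in J4 (n = 8), 49.7 ± 92.3 in J4_female (n = 8) and 13.9 ± 11.6 in J4_moulting (n = 14). Single animals carry these means. The J4 mean was 122 CPM without replicate 8 and 75.7 without replicates 7 and 8, below that of J3, and the J4_female mean was 17.4 without replicate 4. Whether these animals differ in age within their stage is not given in the labels and was not tested.

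Some members carry close identifier numbers. The 100 members spread over 43796 numbers, and 27 have another member within 10. These form 16 neighbouring pairs, 13 of them with both members in the same group. Several of the pairs lie in the run from Mi_08764.1 to Mi_08773.1. The groups were formed from the sedentary correlations, and close numbers among all transcripts were not examined for comparison. The median correlation within such a pair was 0.77 over the sedentary animals and 0.46 over the par_J2 animals, which the grouping did not use, against 0.10 and 0.12 over all pairs. Whether close numbers mean close genes, and which identifiers are copies of each other in this polyploid genome, is not stated in the files. Reads of near-identical copies can be split between them, so single counts of such members are uncertain.

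The run from Mi_08764.1 to Mi_08773.1 was chosen after its values were seen, and 6 of its 10 numbers are members, all in group A. Mean CPM in par_J2, J3, J4 and J4_female was 2.64, 34.9, 59.6 and 92.8 for Mi_08764.1 and 7.41, 67.9, 100.5 and 127 for Mi_08765.1, both highest in J4_female, which falls to 58.6 and 90.6 without replicate 1, below J4. For Mi_08771.1 it was 0.543, 48.6, 84.7 and 41.4, for Mi_08772.1 0.665, 56.3, 125 and 69.9, and for Mi_08773.1 1.79, 196, 276 and 54.2, highest in J4. Without J4 replicate 6 the J4 means of the first 2 were 34.4 and 55.8, and without J4 replicate 3 that of Mi_08773.1 was 65.3, no longer the highest. Mi_08769.1 stood at 194, 145, 90.8 and 19.8, lowest in J4_female. In moulting animals all 6 had means between 1.19 and 2.09 CPM. These means rest on a few animals, since Mi_08773.1 had a J3 median of 0.654 CPM and a highest J3 animal of 1265. The next number, Mi_08774.1, was no member, with a score of 0.02 and means of 0.362, 23.0, 55.2 and 10.6 CPM in the same 4 stages, and the other 4 within the run had negative scores or a score of 0.04.

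Another 6 members form 3 pairs whose numbers differ by 6 or 7, a choice made after their values were seen. They are Mi_03783.1 with Mi_03789.1, Mi_11059.1 with Mi_11066.1, and Mi_19653.1 with Mi_19659.1. All 15 correlations among them were between 0.82 and 0.96 over the sedentary animals, across pairs as within them. Over the 12 par_J2 animals they were between 0.53 and 0.94. The 6 members of the run from Mi_08764.1 correlated between 0.41 and 0.98 in sedentary animals and between -0.51 and 0.82 in par_J2, where 5 of the 6 had means of at most 7.41 CPM.

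At the last moult the members were low but in most cases not absent. The summed level in J4_moulting was 281 ± 84.5 CPM (n = 14), and each of the 100 members had a count in at least 1 of these animals. The same held among the 7 female animals. J4_moulting was the highest of the 4 low stages for 49 members, female for 41, pre_J2 for 9 and male for 1. The members closest to their sedentary level were Mi_11692.1 and Mi_04485.1, at 12.7 ± 10.6 and 11.3 ± 6.03 CPM in J4_moulting. In the lowest of their sedentary stages these were 0.76 and 0.77 log2 units higher, the smallest differences in a set chosen for them.

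Moulting animals were compared with males, both low by the rule. Of 31948 transcripts tested, 27% were called, 16.3% higher and 10.7% lower in J4_moulting. Of the members, 66 had enough counts to be tested, and 11 were called higher and 1 lower, 18.2% of the 66. A member can pass the low-count filter through moulting animals alone. Mi_37316.1, for example, had 5 counts in male replicate 1 and none in the other males. The split of 11 to 1 and the median fold change may be set in part by which members were tested, so nothing is read from them. The members' share lay below that of all transcripts tested, and it turned above it without the low-count filter, with 34% of 100 members and 28.3% of all transcripts, and when all 75 libraries were fitted together, with 29% and 28.4%. The members' median log2 fold change was 1.09, beside 0.36 over all transcripts, and with DESeq2 size factors the 2 medians were 1.21 and 0.50. Mi_43883.1 was higher in moulting animals, at 9.64 ± 12.7 CPM (n = 14) with a range of 0.244 to 51.5, against 0.0780 ± 0.143 in male (n = 7). Its log2 fold change was 6.70, with an SE of 1.21 and an edgeR adjusted p of 0.000356. Mi_37316.1 was at 3.58 ± 4.64 CPM against 0.0258 ± 0.0684 (log2 fold change 6.46, SE 1.25, edgeR adjusted p = 0.000691). Both passed under all 28 and 27 alternatives. Each had few or no counts in every male and entered the test through moulting animals. Neither these calls nor their return under the alternatives is therefore read as support. For Mi_43883.1 the groups overlapped, since the highest male stood at 0.362 CPM. For Mi_37316.1 the lowest moulting animal, replicate 10, stood at 0.225 CPM from 4 counts. The highest male, replicate 1, stood at 0.181 CPM from 5 counts. Counts so few do not show a separation, and the share of all transcripts that separate these stages was not computed.

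The member called lower, Mi_40641.1, was at 1.46 ± 1.46 CPM in J4_moulting and 8.28 ± 13.5 in male, where the median was 0.962 and the highest animal 30.9 (log2 fold change -3.34, SE 1.17, edgeR adjusted p = 0.0358). It did not pass without male replicate 2 (edgeR adjusted p = 0.0960) or 3 (0.122), nor without J4_moulting replicate 3 (0.0508) or 5 (0.0537), and over 28 alternatives the adjusted p ran from 0.00630 to 0.823. For members without a count in male, a fold is a lower bound set by a floor of 3 counts over the 7 libraries, 0.0192 CPM. On that floor Mi_20661.1 was at least 133-fold higher in J4_moulting than in male, Mi_03783.1 at least 63.4-fold and Mi_11059.1 at least 37.2-fold. Without J4_moulting replicate 14 these bounds were 64.9-fold, 32.0-fold and 23.4-fold. Each of these members had no count in several moulting animals, so the bounds hold for stage means and not for each animal.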

How the data were processed

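Per the labels' protocols, each animal was staged by its morphology under a microscope, lysed alone and their messenger RNA reverse transcribed. The authors deposited whole-number counts per transcript, not normalized, and the submitters' processing notes name HISAT2 2.2.1 and StringTie 2.2.1. The genome build, annotation, strand setting and treatment of near-identical copies are not given in the labels or files. A second deposited count table holds a subset of the transcripts with the same values. Columns were matched to stages by library title, and 0 columns were left unmapped. Totals ran from 3265447 to 40174566 counts per library, so floors of 3 counts cover counting error only.

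The members and lists were chosen with earlier results of these data known. Members were taken from stage means of CPM over the library total and of log2(CPM + 1). Pairs of stages were tested over the whole table with edgeR 4.0.16 in R 4.3.3 (filterByExpr, TMM, robust quasi-likelihood test), with calls where the Benjamini-Hochberg adjusted p lay under 0.05 and the fold change reached 1 on the log2 scale in size. The SE is the size of the log2 fold change divided by the root of edgeR's F. DESeq2 1.42.0 was an alternative, and the others were size factors, no low-count filter, the filtered table, a replicate block, all 75 libraries fitted together, no fold threshold and each library left out (not run for J3 against par_J2). Co-varying members were found with scipy 1.17.1 in Python 3.11.15 by average linkage on Spearman correlations of deviations from stage means, with groups of at least 4 members at a mean correlation of at least 0.5. That step was added after the data were seen, as were a sum without Mi_03395.1 and means of group A, Mi_31446.1, the members from Mi_08764.1 to Mi_08773.1 and the bounds of fold with libraries left out.

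The named members follow a rule: the 5 of highest score, those next to the limit, the 2 of highest mean CPM in J3, the extremes of J3 against par_J2, of J4_female against J3 and of J4_moulting, and at most 2 called per direction in a test, or that of smallest p. Others are said to be chosen after their values were seen. In simulated counts with 200 transcripts changed, 4-fold changes and 16-fold changes were recovered at 44 and 82% for J4 against J3 (30708 transcripts), 6 and 47% for J4_female against J4 (28250), 26 and 70% for J4_female against J3 (29954), 16 and 53% for J4_moulting against male (31948) and 33 and 83% for J3 against par_J2 (25685). Titles give each library a number, and nothing in the labels says that a number marks a shared batch. The labels name no batch, date or plate, and batch and stage effects cannot be told apart.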

Additional observations from a re-analysis of the deposited data

Results flagged for a closer look

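In 54 sets of 5 to 8 libraries, covering summed levels in CPM and named members in log2(CPM + 1), 4 held a library far from the rest. Chance alone flags about 1 in 20 where values are normally distributed. Sums in CPM were skewed and the sets share libraries, so the rate here may differ and was not computed. The summed level of the 100 members in J4 was highest in replicate 3, at 8086 CPM, with the next at 4347. The summed level in female was highest in replicate 6, at 830 CPM, with the next at 308. Mi_11692.1 was lowest in J4_female replicate 7, at 1.86 CPM, with the next at 10.2. Mi_08769.1 was highest in J4_female replicate 3, at 123 CPM, with the next at 9.04.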

How the results depend on the processing

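The list of members depended on how the rule was computed. Of the 100, 74 were kept with TMM effective library sizes, 71 with DESeq2 size factors, 70 with a pseudocount of 0.1 and 78 with 5. Only 57 were kept with stage medians in place of means, 55 in the deposited filtered table and 54 without the condition on par_J2, where other genes take their places. Leaving out 1 of the 75 libraries kept between 81 and 99, with 81 without female replicate 6 or J4_female replicate 8, and 42 members were kept in all 75 cases. The summed level in pre_J2 moved to 236 CPM with DESeq2 size factors. Single libraries left out moved the sums to 3011 to 3670 CPM in J3, 2517 to 3474 in J4, 2530 to 3236 in J4_female, 1357 to 1626 in par_J2, 135 to 172 in pre_J2, 264 to 291 in J4_moulting, 138 to 185 in male and 178 to 299 in female.

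DESeq2 called 1 member in J4 against J3, 6 in J4_female against J3, 22 in J4_moulting against male and 17 in J3 against par_J2, where edgeR called 0, 0, 12 and 6. DESeq2 called 3.68, 5.45, 38.2 and 7.17% of all transcripts there. Without a low-count filter the counts were 34 in J4_moulting against male and 18 in J3 against par_J2, beside 28.3 and 14.1% of all transcripts. When all 75 libraries were fitted together they were 29 and 20, beside 28.4 and 10.4%. In the filtered table J4_moulting against male gave 7, beside 22.6%. With single libraries left out, J4 against J3 gave 0 to 1, J4_female against J3 0 to 1 and J4_female against J4 0 to 0. J4_moulting against male gave 9 to 16, beside 23.8 to 29.4% of all transcripts. The 1 call came without J4 replicate 4 in the first, and without J4_female replicate 3, 4 or 7 in the second. The cause of these differences was not tested.

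Equal replicate numbers did not pair the libraries, with correlations of deviations from -0.24 to 0.25 and 0 libraries closest to their own number. With the replicate block, J3 against par_J2 gave 1 member and J4_moulting against male 14, beside 1.33 and 24.1% of all transcripts. In the latter Mi_40641.1 turned to a log2 fold change of 1.07 (edgeR adjusted p = 0.823).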
